A study of Rattus norvegicus with 6 samples.

Results

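The renal cortex of untreated rats was described from 3 Agilent one-colour arrays, the water controls of a study that also gave rats o-anisidine hydrochloride. The rats were male Sprague-Dawley (Crl:CD(SD)) animals, bought at 5 weeks of age, kept on a basal diet and given water for 4 weeks. Total RNA of the cortex was labelled with Cy3, and the 3 control arrays lay on 1 slide. The treated arrays are not analysed here. A gene was included when at least 1 of its probes was marked well above background on all 3 control arrays, which held for 30846 of the 45877 genes on the array (67.2%). Of these, 11939 carried a rat RefSeq symbol, out of 15284 symbols matched on the array (78.1%). The other 18907 had no matched symbol and were known by a public accession or the array's own identifier. Each such name was counted as a gene of its own, whether or not another name stood for the same transcript. Each value is a scaled log2 signal, the log2 of the processed signal minus the log2 of that array's 75th percentile, so that 0 is the 75th percentile of all probes and 1 unit is a 2-fold step. A gene was represented by its brightest probe.

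The renal cortex consists mostly of proximal tubules, with glomeruli, distal segments, cortical collecting ducts and vessels between them. Proximal tubule cells take back most of the filtered glucose, phosphate, amino acids and protein, secrete organic anions and cations, and make glucose and ammonia. They run on mitochondrial oxidation of fatty acids and other fuels, since the sodium pump on their basolateral side drives nearly all of this transport. In whole cortex, fewer cells of a type and less RNA per cell cannot be told apart.

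The 3 arrays were alike in quality. The share of the 61657 probes marked well above background ran from 69.9% to 70.8%, and the signal used for scaling from 986 to 1031 intensity units. Across genes, which are not independent, Pearson's correlation of the scaled log2 signal was 0.9948 between controls 1 and 2, 0.9934 between controls 1 and 3 and 0.9938 between controls 2 and 3. The control columns of the deposited value table numbered 1, 2 and 3 matched the scanner files numbered 3, 1 and 2, so the numbering of these animals is unsettled. The numbers used here are those of the scanner files. Genes just inside the detection threshold included Sox14, at -6.12, -5.86 and -5.84 on controls 1, 2 and 3, while just outside it Cacng2, well above background on 0 arrays, stood at -6.03, -5.79 and -6.00. On either side of the threshold the signals overlapped.

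Probe signal was spread very unevenly over the genes. The scaled log2 signal ran from -5.99 to 9.69, with a median of -1.04 over all genes and 0.13 over genes with a symbol. The 100 brightest genes held 16.9% ± 0.26 (SD, n = 3) of the summed linear signal, and 717 genes (2.32%) held 50% of it. On all 3 arrays 91 genes were among the 100 brightest, and 111 were so on any array. A probe's signal depends on its sequence as well as on its transcript. Among 6138 genes with a symbol and several kept probes, the brightest and dimmest probe differed by a median of 2.19 log2 units, so the ranks below are ranks of probe signal and not an order of transcript number.

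Enzymes of sugar metabolism led the genes with a symbol. Miox, the myo-inositol oxygenase of the proximal tubule, had the highest signal, at 9.32, 9.31 and 9.38 on controls 1, 2 and 3. Fbp1, fructose-1,6-bisphosphatase, stood at 9.10, 9.15 and 9.18. Both enzymes exceeded the top of the linear range fitted to the spike-in RNAs, which ended at 8.93, 9.11 and 9.04 on the 3 arrays, and the scanner saturated none of their spots. Ferritin was bright in both chains, with Ftl1 at 9.15 ± 0.07 (SD, n = 3) and Fth1 at 8.67 ± 0.10. Kap, the kidney androgen-regulated protein, stood at 8.77, 8.78 and 9.24, with control 3 apart from the other arrays. Cyp4a2 and Cyp4a8, fatty acid hydroxylases, had means of 8.86 and 8.28, and Cyp2c23, an arachidonic acid epoxygenase, one of 8.50.

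The remaining genes among the 30 brightest fell into a few kinds. Mitochondrial respiration was represented by Atp5f1a (8.84), Cox6a1 (8.49), Uqcr10 (8.29) and Atp5me (8.24), and protein synthesis by Rpl41 (8.81), Rplp1 (8.47) and Rplp0 (8.35). The metallothioneins Mt1 (8.66) and Mt2A (8.25), which bind zinc and copper, and the lysosomal proteases Ctsb (8.59) and Ctsa (8.31) were among them. Transport was represented by Slc13a3 (8.53), a dicarboxylate carrier, Slc34a1 (8.45), the main phosphate carrier of the brush border, and Atp1b1 (8.24), the beta subunit of the sodium pump. Umod, which encodes the uromodulin secreted by the thick ascending limb, stood at 8.84, 8.55 and 8.58. Hba-a1, an alpha globin of red blood cells, stood at 8.82, 8.38 and 8.42. Ubb, Ppia, Myl6, Ceacam9 and Chchd2l3 were also among the 30, with means between 8.29 and 8.74. A second probe of Ceacam9 stood at -8.18, -8.09 and -8.19 and was well above background on 0 arrays. Of the 30 brightest genes of any kind, 22 had no symbol.

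**Figure D1:**
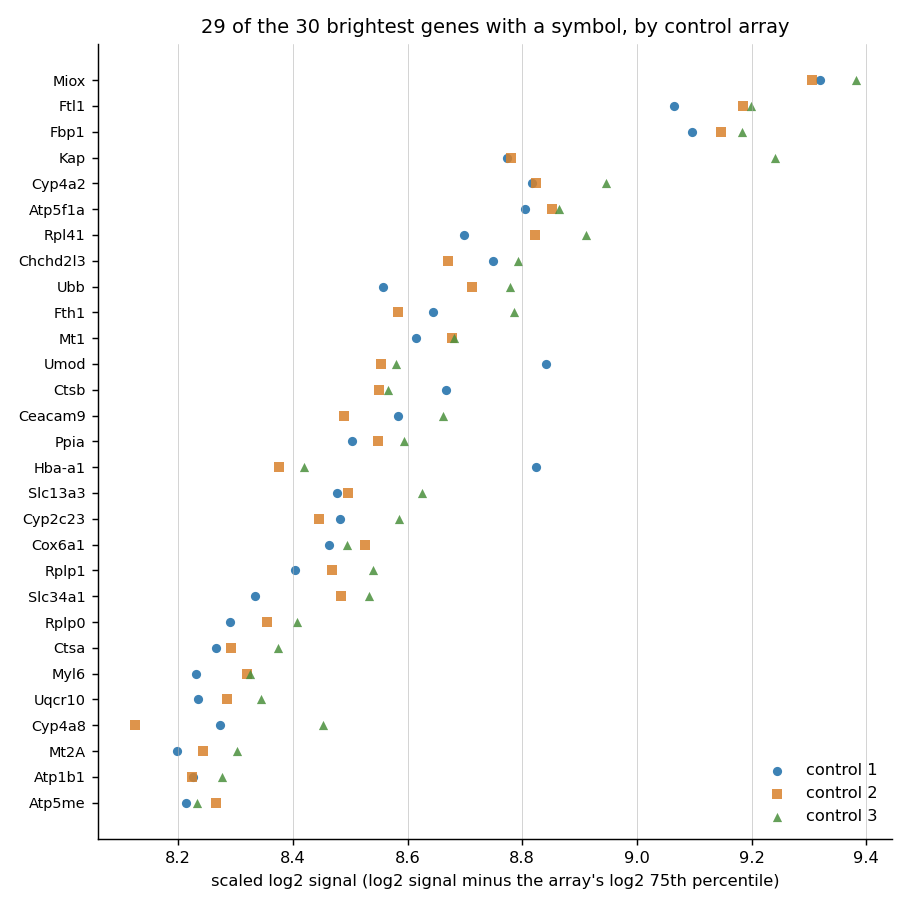
Scaled log2 signal (x axis) of 29 of the 30 brightest genes with a symbol (y axis), with 1 point per control array. The arrays lie close together for most genes, and Kap on control 3 (9.24) and Hba-a1 and Umod on control 1 (8.82 and 8.84) lie apart from the other arrays.

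The RefSeq promoter windows of these genes, on build GRCr8, reach from 250 bases before the start to 50 bases after it. The letters TATAAA, searched on both strands with their first base 50 to 21 bases before the start, were found in 13 of the 100 brightest genes with a window (13.0%), against 2.96% of the 24206 full-length windows in the table whose symbol has 1 window. Of the 30 brightest genes 23 had exactly 1 window, and the 7 of these that hold the letters are shown because they include a kidney enzyme, a kidney phosphate carrier, 2 metallothioneins, a globin and general cell genes side by side. Each stretch runs 5′ to 3′ on the gene's strand over 80 bases, from 60 bases before the start, and capitals mark the TATAAA letters.
Miox, chr7:122284600-122284679, plus strand: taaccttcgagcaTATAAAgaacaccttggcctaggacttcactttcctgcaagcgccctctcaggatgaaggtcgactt
Slc34a1, chr17:9238964-9239043, minus strand: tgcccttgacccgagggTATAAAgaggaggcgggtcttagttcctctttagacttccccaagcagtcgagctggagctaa
Mt1, chr19:10832956-10833035, minus strand: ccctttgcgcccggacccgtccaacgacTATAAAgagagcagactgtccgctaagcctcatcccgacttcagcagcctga
Mt2A, chr19:10838689-10838768, minus strand: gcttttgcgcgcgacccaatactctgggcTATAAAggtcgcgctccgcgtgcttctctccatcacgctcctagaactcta
Hba-a1, chr10:15842561-15842640, minus strand: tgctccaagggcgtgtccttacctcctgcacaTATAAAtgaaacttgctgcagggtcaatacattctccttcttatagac
Ppia, chr14:85493156-85493235, plus strand: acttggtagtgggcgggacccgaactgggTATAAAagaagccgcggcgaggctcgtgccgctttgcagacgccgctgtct
Rplp0, chr12:46718371-46718450, minus strand: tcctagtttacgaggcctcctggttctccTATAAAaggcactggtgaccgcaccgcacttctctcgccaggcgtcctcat
The match began 47 bases before the start in Miox and 43 in Slc34a1, and between 32 and 28 bases before it in the other 5 genes.

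Lists of cell type markers were set beside the tissue label. The lists were chosen with earlier results of these data known, so they are no independent check of it. All 47 proximal tubule markers passed detection, against 78.1% of all symbols on the array. Several other lists, such as those of principal cells, podocytes and endothelium, also passed in full. The proximal tubule markers had a median percentile of signal of 95.8, and 35 of them lay in the brightest 10% of genes. For comparison, the median percentile of all genes with a symbol was 62.0, and 12.2% of them lay in the brightest 10%. Besides Miox and Fbp1, the list held Gpx3, the secreted glutathione peroxidase (8.01 ± 0.04), Lrp2, the megalin receptor (6.52 ± 0.04), and Aqp1, the water channel of this segment (6.68 ± 0.03; SD, n = 3). Its dimmest member was Slc5a1, a sodium-glucose carrier, at -1.55, -1.31 and -1.06, which placed it at percentile 47.2. Hnf4a, a transcription factor that drives many proximal tubule genes, had a signal of 0.52.

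Later segments of the nephron were present at lower list medians. The thick ascending limb list had a median percentile of 83.8 over 11 members, with Umod and Egf (5.03) among its brightest members and the prostaglandin receptor Ptger3 dimmest (-1.80). The distal convoluted tubule list had a median of 65.8 over 7 kept members, led by the potassium channel Kcnj16 (4.88), the sodium chloride carrier Slc12a3 (4.34) and the calcium binder Calb1 (2.33). Its members Pvalb and Kcnj10 did not pass detection, and the calcium channel Trpv5 was dimmest (-2.33). Principal cell markers had a median of 74.0 over 12 members, led by the water channel Aqp2 (6.70), the glucocorticoid-inactivating enzyme Hsd11b2 (5.72) and the transcription factor Tfcp2l1 (5.46), with Elf5 dimmest (-3.03). The other probe of Tfcp2l1 stood at -2.49. Intercalated cell markers had a median of 86.8, and all 10 lay between percentiles 82.2 and 97.7, led by the proton pump subunit Atp6v1g3 (6.23) and the anion exchanger Slc26a4 (5.68).

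Glomerular, vascular and interstitial markers spread over the whole range of signal. Podocyte markers had a median percentile of 60.4, from Podxl, a surface sialomucin (4.44), and Clic5 (4.17) down to Pla2r1 (-5.12). The slit diaphragm gene Nphs1 stood at 1.25. Endothelial markers had a median of 61.7, led by Plvap (5.50, and -0.58 on its other probe) and the receptor Kdr (4.85). The list of mesangium, pericytes and smooth muscle had a median of 60.7 over 10 members. Among them Notch3, a receptor of pericytes and smooth muscle, stood at 4.48, and its other probe at -2.85. Among leukocyte markers Lyz2 (6.52), Cd74 (5.26) and C1qb (3.19) were brightest, and Cd3e, of T cells, was dimmest (-4.51), while Itgam did not pass.

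Markers of tissues that border the kidney were in part not detected. The liver genes Alb, Apoa1, Ttr and Serpina1 and the adrenal genes Star, Cyp11b1 and Dbh did not pass detection on all 3 arrays. Nor did the fat genes Lep and Fabp4 and the muscle genes Myh4 and Myl1. Of these, Apoa1, Fabp4 and Myh4 were well above background on 2 arrays, Serpina1 on 1 and the others on 0. Fabp4 stood at -6.84, -2.90 and -1.33. Kept members of these lists included Fga (0.51), of liver, Th (1.09), of the adrenal medulla, and Adipoq (-0.01), of fat. The other probe of Th stood at -5.30. The liver gene Cyp2c11 was kept as well, at 2.02, -2.65 and 1.21. The kept members had a median percentile of 56.0 over 4 for liver, 56.0 over 3 for fat and 42.5 over 5 for adrenal, against 58.2 for leukocyte markers. The skeletal muscle list had a median percentile of 14.5 over 3 kept members, and the inner medulla and urothelium list one of 31.9 over 8, with Upk2 and Krt20 not detected. As a gauge of the detection rule, 230 of 1111 olfactory receptor genes (20.7%), which serve the sense of smell, passed it, with a median percentile of 13.3 and 0 of them in the brightest 10%.

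**Figure D2:**
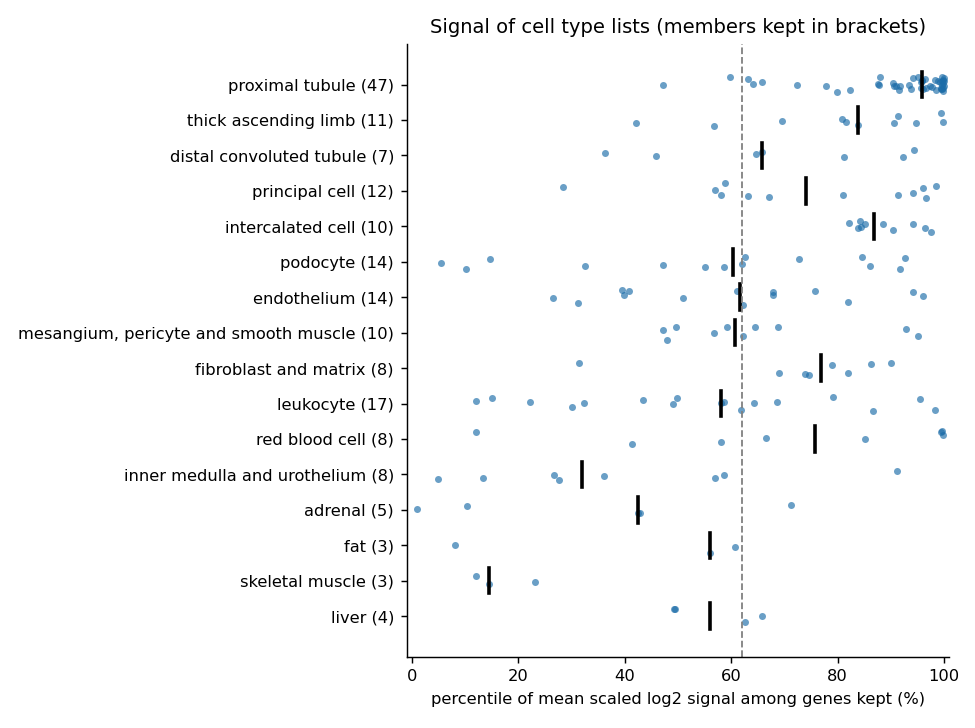
Percentile of mean scaled log2 signal among the 30846 genes kept (x axis) for each kept member of 16 marker lists (points), with the list median (black bar) and the median of genes with a symbol (dashed line, 62.0). Proximal tubule markers crowd at the right, with a median of 95.8, and skeletal muscle markers lie at the left.

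Carriers of the brush border and basolateral membrane covered a wide span. For glucose, Slc5a2, the high-capacity sodium-glucose carrier, stood at 7.26, 7.45 and 7.41, and the exit carrier Slc2a2 at 3.41, 3.70 and 3.46. For phosphate, Slc34a1 was followed by Slc34a3 (4.85) and Slc20a2 (3.00). For amino acids, Slc3a1, the heavy chain of the cystine carrier, stood at 8.19 and its partner Slc7a9 at 5.40, and Cltrn, the collectrin that brings amino acid carriers to the surface, at 7.59. Slc36a1 was dimmest of that list (-3.39) and Slc36a2 did not pass. For organic anions, Slc22a6 and Slc22a8 stood at 8.17 and 7.75, and for organic cations, Slc22a2 stood at 4.73. The drug efflux pump gene Abcb1a was dimmest of the 18 organic ion carriers (-4.74).

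Protein uptake and ion pumping were bright as groups. The endocytic list had a median percentile of 95.9 over 13 members, with Ctsb, Ctsd (6.66) and Lrp2 brightest and the phosphatase Ocrl dimmest (-1.40). The pump list had one of 94.9 over 8 members, with Atp1b1 and the regulator Fxyd2 (7.10) among the brightest and Atp6v1e1 dimmest (1.95).

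Metabolic lists stood near the top of the signal range. Gluconeogenesis and fructose metabolism had a median percentile of 98.7 over 13 members, with Fbp1 and Khk, the ketohexokinase (7.91), among the brightest and Pck2 dimmest (2.05). G6pc1, the last enzyme of glucose release, differed most in this list, at 6.51, 7.12 and 7.52. Oxidative phosphorylation had a median of 97.8 over 39 members, of which 38 lay in the brightest 10%, with a median between-animal SD of 0.043 against 0.066 over the brightest 10% of genes and 0.120 over all genes. Uqcrq was its dimmest member, at -0.17, and Atp5f1a, Cox6a1 and Cox8a (8.05) were brightest of the list, which does not hold Uqcr10 and Atp5me. Ribosomal proteins had the highest median of these lists, 98.9 over 61 members, with Rps26 dimmest. The tricarboxylic acid cycle had a median of 96.1, led by Suclg1 (7.41), Idh2 (7.36) and Sdha (7.07), with Idh3a dimmest (1.02). Fatty acid oxidation had one of 90.5 over 20 members, led by Hadh (7.41), with the coactivator gene Ppargc1a dimmest (-0.57).

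Amino acid breakdown and ammonia production had medians of 96.2 and 93.6. Acy3, an aminoacylase, was brightest of the first (7.72), and Gatm, which starts creatine synthesis, stood at 5.97, 5.05 and 5.45, a range of 0.92. Glutathione and antioxidant defence was led by Gsta2 (8.13), Gpx1 (8.02) and Gpx3. Gclm, the modifier subunit of glutamate-cysteine ligase, was dimmest of the antioxidant list (-2.60). Its catalytic partner Gclc stood at 6.92 on its brightest probe and at 2.55 on the other. Signals of different probes do not give the proportion of the subunits. Gstm3 did not pass.

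Hormone genes of the kidney had middling signals. Egf (5.03) and the parathyroid hormone receptor Pth1r (4.43) were among the brightest of 25 kept members, Esr1 was dimmest (-4.38), and Epo, made by interstitial cells, did not pass. The vitamin D enzymes differed between animals. Cyp27b1, which activates vitamin D, stood at -1.58, 0.13 and -0.39, and Cyp24a1, which degrades it, at 0.49, 1.78 and 1.09, so control 1 was lowest and control 2 highest for both genes. Among nephron transcription factors Tfcp2l1 (5.46), Esrra (4.92) and Nr1h4 (4.83) were brightest, Six2, a factor of the embryonic kidney, was dimmest (-5.09), and Osr1 did not pass. Of 12 injury markers Havcr1, the kidney injury molecule, was dimmest, at -4.85, -3.61 and -5.23, and Anxa2 brightest (3.68). Of the immediate early genes Jund (4.34), Jun (3.40) and Klf6 (3.08) were brightest and Fos dimmest (-3.56), and Fosl1, Egr2 and Egr3 did not pass.

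Chaperone, clock and cell division genes stood at different levels of signal. The chaperone list had a median percentile of 95.7 over 10 members, led by Hspa8 (7.81), Hspe1 (7.26) and Hspd1 (6.50), with the inducible Hspa1a dimmest (-1.66). Of 14 kept circadian clock genes 7 lay above the median of all genes, the share that all genes have by definition, led by Dbp (3.12), Tef (2.09) and Bmal1 (1.53), with Nr1d2 dimmest (-4.15) and Ciart not detected on all arrays. The cell division list had a median percentile of 40.7 over 9 kept members, led by the kinases Cdk1 (0.38) and Plk1 (-0.79) and by Birc5 (-0.81), with Cenpf dimmest (-4.69), and Aurkb did not pass.

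The spread between the 3 animals was small for most genes and fell with signal. Each animal had 1 array, so a difference between animals cannot be told apart from one between arrays. The median SD of the scaled log2 signal was 0.120, from 0.237 in the dimmest 10% of genes to 0.0658 in the brightest 10%. Repeated spots of the same spike-in probe on 1 array had a median SD between 0.047 and 0.056. The highest and lowest animal differed by more than 2-fold for 1038 genes (3.37%), by more than 4-fold for 173 and by more than 16-fold for 26. With normexp background correction the first count was 442. Without control 1, 2 or 3 it was 603, 591 or 452, but a probe's range over fewer arrays cannot be larger. Reference genes ranged from Ywhaz (SD 0.01) and Tbp (0.03) to Actb (0.26), which stood at 6.65, 6.48 and 6.14.

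**Figure D3:**
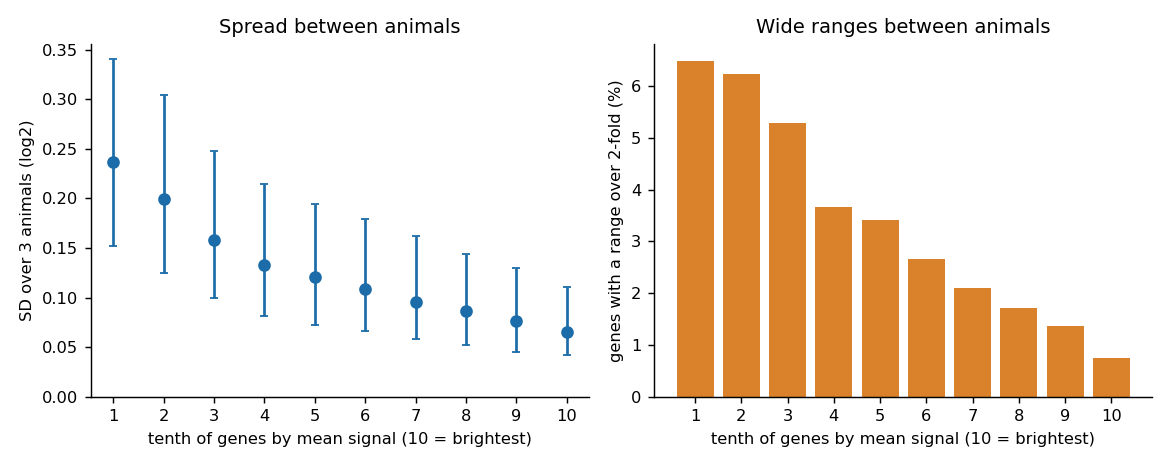
Left, the SD of the scaled log2 signal over 3 animals in 10 equal groups of genes from dimmest to brightest, as medians (points) with the middle 50% of genes (bars). Right, the share of genes whose highest and lowest animal differed by more than 2-fold, which fell from 6.49% to 0.746%.

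Genes of wide range were named where all probes of the gene agreed on the highest and the lowest array. Among genes with several probes and a range of at least 1 log2 unit, 82 of 127 did so (64.6%), against 32.9% of all 6138. Bcl6, a transcriptional repressor, stood at 1.57, 1.04 and 4.04, and its second probe at -3.65, -4.23 and -1.44, so control 3 was far above the other animals on both probes. Cish, an inhibitor of cytokine receptor signalling, ran the other way, at 1.20, -0.32 and -1.31. Akr1b10, an aldo-keto reductase, stood at 1.84, 0.98 and -2.31, with control 3 lowest.

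Several others of the 15 genes of widest range so named were highest on control 3. Over all 1038 genes with a range over 2-fold, control 3 stood farthest from the array of middle value in 424 (40.8%). It was higher in 246 of these and lower in 178. Cxcl14, a chemokine, stood at -0.42, 0.69 and 2.17. Slpi, a protease inhibitor, stood at 0.47, 1.65 and 2.74. Scgb1c1, a secretoglobin, stood at -2.56, 0.40 and 1.51, and in all of these control 1 was lowest. The copper transporter Atp7a, the meiotic gene Rec114, the cartilage protein Matn1 and the leukotriene synthase Ltc4s had the same order of arrays, with ranges between 1.86 and 2.81. Mpped1 and the oxidase Aox1 were highest on control 3 and lowest on control 2, although the second probe of Mpped1 ranged by only 0.62. Uqcc6 was lower on control 3 (1.39) than on controls 1 and 2 (3.26 and 3.20), Mt3 was highest on control 1 (-2.48), and Or13p4, an olfactory receptor, was lowest on control 3, while its second probe ranged by only 0.66. On the brightest probe, all 15 kept their highest and lowest array with normexp correction, and 13 of them a range over 2-fold. The correction uses the same spots, so the kept order is no independent check.

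**Figure D4:**
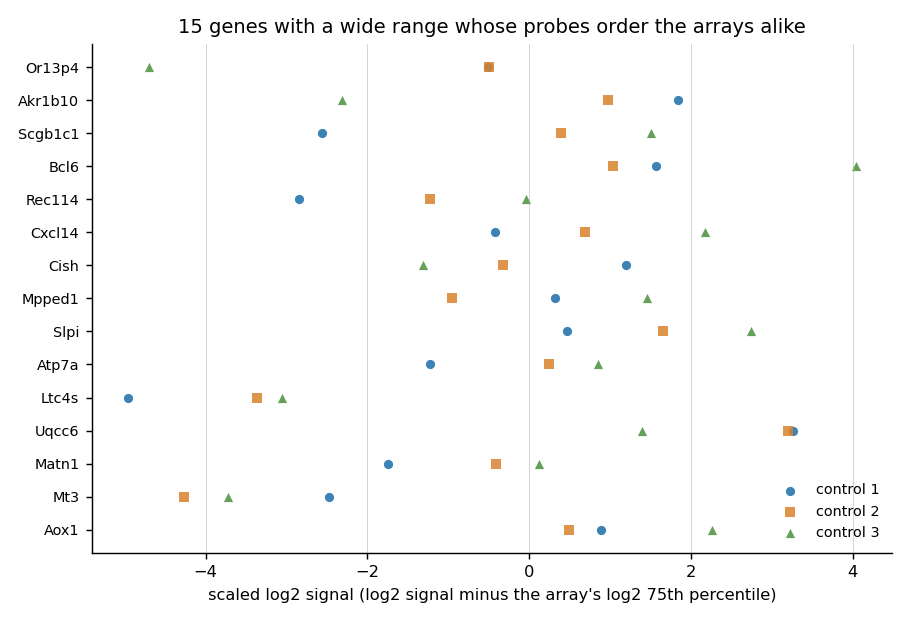
Scaled log2 signal (x axis) of 15 genes with a symbol and a wide range between animals (y axis), with 1 point per control array. Control 3 is far to the right for Bcl6 (4.04) and far to the left for Akr1b10 (-2.31).

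A few genes outside that rule are named because of their values. Gal, which encodes the neuropeptide galanin, had the widest range of all genes with a symbol, at -5.10, 4.41 and 4.21, or 728-fold between animals and 233-fold with normexp correction. Its second probe was well above background on controls 2 and 3 but not on control 1. Resp18, a protein of endocrine cells, was likewise lower on control 1 (0.63) than on controls 2 and 3 (4.20 and 3.66). Cyp2c11, the male-specific P450 of rat liver, stood at 2.02, -2.65 and 1.21, and Gstm1, a glutathione transferase, at 0.98, -1.07 and 1.46, with control 2 lowest for both. Resp18, Cyp2c11 and Gstm1 had 1 probe each, so no other probe bears on their range.

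Some lists shifted together between animals. The shift of a list on an array is the median over its members of the array's value minus the gene's mean, and over all genes it was -0.0086, 0.013 and -0.0012 on controls 1, 2 and 3. Heat shock genes shifted by -0.25, -0.06 and 0.33, and all 10 were highest on control 3, among them Hspa1a at -1.92, -2.77 and -0.28. Fibroblast and matrix genes shifted by -0.24, -0.14 and 0.32, and all 8 kept members were highest on control 3, while Lum did not pass. Among them was Dcn, the matrix proteoglycan decorin, at 2.49, 2.93 and 3.85. Skeletal muscle genes shifted most of all lists, by -0.58, 0.20 and 0.44, over only 3 kept members, of which 1 was highest on control 3. Ribosomal proteins shifted little, by -0.05, 0.01 and 0.05, with 47 of 61 highest on control 3. Over all genes with a symbol, 3701 of 11939 were highest on control 3.

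Markers of the later nephron, endothelial markers and cell division genes were mostly lowest on control 3. Of intercalated cell markers 9 of 10 were lowest there, of thick ascending limb markers 8 of 11 and of distal convoluted tubule markers 6 of 7, with shifts of -0.17, -0.12 and -0.15 on control 3. Of endothelial markers 11 of 14 and of cell division genes 8 of 9 were lowest there, with shifts of -0.15 and -0.24. Over genes with a symbol, 4753 of 11939 were lowest on control 3. Proximal tubule markers shifted by -0.08, -0.01 and 0.07, with 32 of 47 highest on control 3. In principal cells 8 of 12 markers were lowest on control 3, but the water channels Aqp2 (6.63, 6.60 and 6.86), Aqp3 (4.72, 4.68 and 5.16) and Aqp4 (-0.48, -0.52 and -0.17) were highest there. The second-brightest probe of Aqp4 (-2.49, -2.53 and -2.69) was lowest on control 3, and its remaining kept probes were highest there. Red blood cell genes were highest on control 1 in 6 of 8, against 3853 of 11939 genes with a symbol, with Hbb at 8.16, 7.71 and 7.81 and Alas2, of haem synthesis, at 1.16, 0.35 and 0.27. The part of blood, of the piece of cortex taken, of the time of sampling or of the array itself in these shifts was not tested.

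Promoter windows of dim and bright genes differed in base content. CpG observed over expected counts CG steps against the number that the window's C and G content gives by chance, and it is high in CpG islands. Over 9339 kept genes with a symbol and 1 window, its median was 0.372 in the dimmest 10% by signal and 0.765 in the brightest 10%, and 0.243 over the 2707 symbols that were not kept. The gap between the brightest and dimmest 10% was 0.392, and 0.239 when a gene was represented by its dimmest kept probe. With olfactory and vomeronasal receptors taken out, the median was 0.432 in the dimmest 10% and 0.333 over the remaining 1872 symbols not kept. The median also differed between lists, whose signals differ too, with list medians of 6.96 for ribosomal proteins, 6.30 for oxidative phosphorylation and 5.40 for proximal tubule markers. Ribosomal protein genes had a median CpG observed over expected of 0.905 and oxidative phosphorylation genes one of 0.874, whereas 40 proximal tubule markers had 0.326, with 67.5% of them under 0.5. The share of windows with the TATAAA match was 4.72% in the dimmest 10% and 4.18% in the brightest 10%, with a low of 1.07% in the group just below the brightest.

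**Figure D5:**
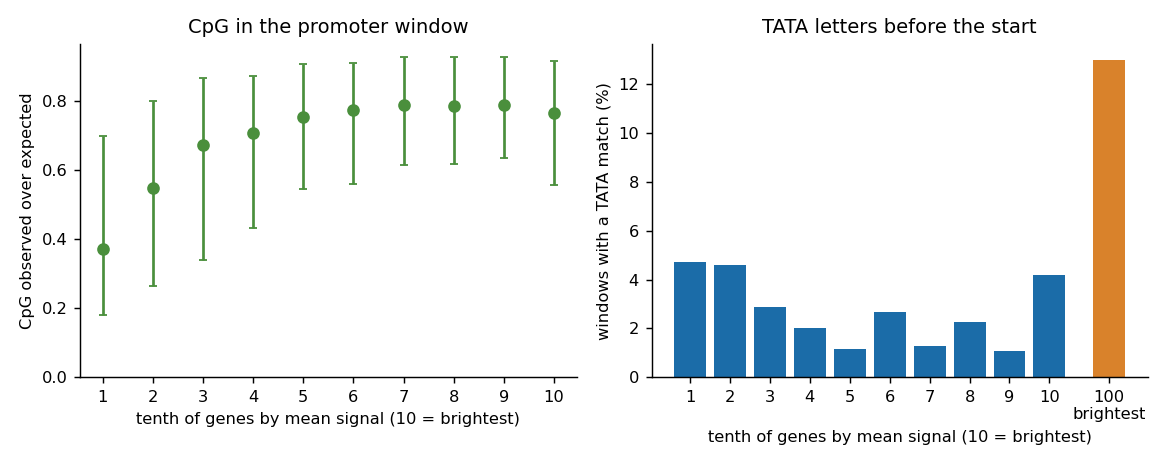
Left, CpG observed over expected in the 300-base promoter window in 10 equal groups of genes from dimmest to brightest, as medians (points) with the middle 50% of genes (bars). Right, the share of windows with TATAAA 50 to 21 bases before the start, which is 4.18% in the brightest 10% and 13.0% in the 100 brightest genes.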

How the data were processed

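RNA of 3 control renal cortices was measured on Agilent one-colour arrays. The authors' scanner files give an intensity per spot, read with Agilent Feature Extraction 10.7 per the submitters' processing notes. No source used here states how the processed signal was corrected. In the deposited value table stands the same intensity divided by each array's 75th percentile, found by setting its columns against the scanner files. Control spots were left out, and log2 of the processed signal was taken minus log2 of the array's 75th percentile over 61657 probes. Probes were named by matching the array's accessions, without versions, to RefSeq, which named 27460 probes. No saturated spot occurred, and 5 kept probes carried an outlier flag and were retained. The number of arrays limits the precision, and no test was made because the report compares no groups. Means, SDs (n = 3), ranges and percentiles were computed with Python, pandas and numpy, and normexp (offset 50) and quantile normalization with limma 3.58.1 in R 4.3.3. The scripts were tested on simulated data. Named genes were the 30 brightest with a symbol, the 3 brightest, the dimmest and the undetected members of each list, and the 15 of widest range with at least 2 kept probes that agreed on the highest and lowest array, and others are examples chosen after their values were seen. The members and lists were chosen with earlier results of these data known. Promoter windows were those of RefSeq for genes with 1 window. A few genes that the rule names are not reported here.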

Additional observations from a re-analysis of the deposited data

How the results depend on the processing

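A value counted as unmoved within the SD over arrays or over pairs of arrays, or within 1.5 times for counts. Scaling by the median, quantile normalization and the authors' value table left all 7 summary values unmoved in this sense. Much of this was fixed in advance. The gene count rests on the scanner's flags, median scaling shifts each array by a constant, and the value table holds the intensities of the main setting. Normexp background correction lowered the median SD to 0.0914 and the count of genes with a range over 2-fold to 442, and moved the lowest correlation to 0.995 and the proximal tubule percentile to 95.5. With detection on at least 1 array, and with no filter, the median SD was 0.131 and 0.133, the wide genes 2435 and 5339, the lowest correlation 0.989 and 0.992, the proximal tubule percentile 96.2 and 97.2 and the CpG gap 0.451 and 0.555. With the mean of a gene's probes, the share of the 100 brightest was 18.9%, the proximal tubule percentile 95.2 and the CpG gap 0.382. With the dimmest probe, the share was 20.2%, the median SD 0.127, the lowest correlation 0.993, the percentile 94.0 and the CpG gap 0.239. With symbols only, 11939 genes were kept, the share was 25.5%, the median SD 0.109, the wide genes 353 and the percentile 95.6. Leaving out each array gave 31179 to 31365 genes, shares of 16.8% to 17.0%, median SDs of 0.0907 to 0.101 and 452 to 603 wide genes. It also gave lowest correlations of 0.993 to 0.995, percentiles of 95.8 to 95.9 and CpG gaps of 0.407 to 0.412. A probe's range over fewer arrays cannot be larger, so lower counts of wide genes alone do not single out an animal. The count was lowest without control 3 (452), against 603 without control 1 and 591 without control 2. Among wide genes, control 3 stood farthest from the array of middle value in 424, against 303 for control 1 and 311 for control 2. Restricting to genes above the 75th percentile, chosen after seeing the data, gave a median SD of 0.0803 and 175 wide genes, and the alternatives for the CpG gap were also chosen then. The cause of these moves was not tested, apart from those that change which genes or arrays enter. No paired analysis was possible because only control animals were described. Signal near background limits what can be said of the dimmest genes.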
